A study of Mus musculus with 5 samples.

Results

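The RNA of wild-type adult mouse testis is described here from 1 library of the 5 in a series on the transcription factor subunit TAF7L. The members are all genes in that library: of the 55350 transcripts in the deposited expression table, the transcript with the highest wild-type value was taken for each name, which gave 29942 names. The library was made from testes of wild-type mice aged 3 months. Polyadenylated RNA was purified from 8 µg of a pool that held equal amounts of 6 RNA extracts, so it is 1 library without a replicate, and no spread between animals can be given. The other 4 libraries are RNA of Taf7l knockout testis, which is not used here, and chromatin immunoprecipitates of TAF7L, RNA polymerase II (Pol II) and IgG, also labelled wild type and 3 months of age. Values are the authors' expression signal, whose unit the header does not name. It is read here as a level per transcript length, since Cufflinks, named in the processing notes, gives such values, but no source used here states it. The spread printed beside a signal is the deposited standard deviation (SD), read as a spread over parts of this 1 library, which is technical. With 1 library every comparison between genes below is a description without a test.

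The adult testis holds seminiferous tubules, in which spermatogonia divide, spermatocytes pass through meiosis, and round spermatids reshape into elongating spermatids and sperm. Sertoli cells nurse these germ cells, peritubular cells contract around the tubule, and Leydig cells between the tubules make androgen. Late spermatids pack their DNA with transition proteins and then protamines, whose messenger RNAs are made earlier and stored until needed. In bulk tissue fewer cells of a type and less RNA per cell cannot be told apart, so a low signal of a gene says nothing on its own about how many cells express it.

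Protamine and transition protein transcripts led the names spanning at least 200 bp, but the top of the full ranking was held by very short transcripts. Of the 30 highest names, 22 spanned under 200 bp, and 14 of these carry clone names that start with DQ. The 3915 names under 200 bp, of which 3120 start with DQ, held 44.3% of the total signal of 914635. The highest of all was DQ711560, a clone name spanning 52 bp (chromosome 13, 53493498 to 53493549, mm9), with 90682 and an SD of 114631. It alone was 9.91% of the total. The small nucleolar RNA gene Snord49a, spanning 63 bp, followed with 27485 and an SD of 11472. The cDNA clone AK181029, spanning 146 bp, had 19978 and an SD of 15432. Among the 30 highest names, 12 of the short ones had an SD at or above their mean.

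These values moved with span. All 2480 names spanning 50 bp or less were listed at 0, and the shortest name with a signal spanned 51 bp. Of the 300 names spanning 51 to 60 bp, 180 were at 0 and the other 120 held 26.2% of all signal. A transcript whose SD is 8 times its mean has the value that 1 non-zero part among 64 would give, and 318 transcripts met this. Their signal was 6361 at 51 bp, a median of 164 at 58 bp, 10.6 at 80 bp and 1.504 at 110 to 130 bp. In 8 olfactory receptor transcripts of this kind, spanning 898 to 1119 bp, the median was 0.005. Printed values are rounded, so low signals can miss the ratio of 8, and both the 318 and these 8 may leave out such transcripts. Among the transcripts that met the ratio, the median of signal times span was 324387 at 51 bp and 5.24 at 898 to 1119 bp. A value per length alone therefore does not describe the shortest spans. DQ711560 stood at 35.2 times the median of such transcripts at its own span, Snord49a 429 times and the hairpin row Mir147 445 times. DQ556070 and DQ720805, with 6361 and 2573, were themselves of this kind. Of the 722 short names with a signal, 668 had an SD at or above the mean, against 99 of the 13894 longer names with a signal of at least 1.

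**Figure D1:**
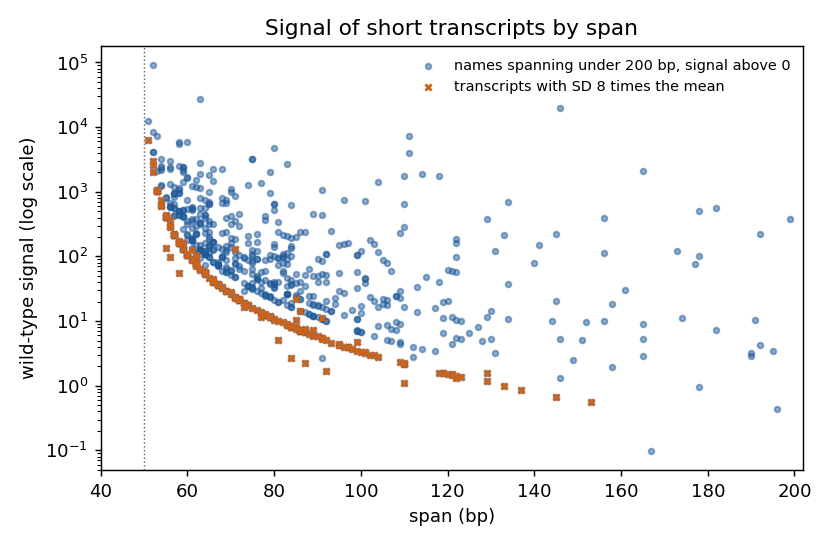
Wild-type signal (log scale) against span in bp for names spanning under 200 bp (blue) and for transcripts whose SD is 8 times the mean (orange); the dotted line marks 50 bp. No name has a signal at or under 50 bp, and the orange points fall from 6361 at 51 bp to a median of 1.504 at 110 to 130 bp.

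Of the 30 highest short names, 9 fell within the span of the kept transcript of a longer name and 21 did not. Other transcripts of the longer names were not searched, so some of the 21 may lie within one. Snord49a lay within 2410006H16Rik, which had 33.1, and Mir147 (80 bp, signal 4710, SD 1538) lay within AA467197, which had 88.9. Mir705 (2654, SD 1277) lay within Rab11fip5 with 51.4, and Mir1956 (2289, SD 2743) within Eif4e with 61.7. These are signals over hairpin spans in a messenger RNA library and do not measure mature microRNAs. In what follows, shares are given over the 26027 names spanning at least 200 bp, whose signal sums to 509114, and the share over all names stands beside the main ones. This bound was chosen as the basis after the values were seen.

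The signal of the longer names was concentrated in few genes. Among names of at least 200 bp, the 4 highest held 11.9% of the signal, the 10 highest 15.05%, the 100 highest 31.7% and the 1000 highest 65.9%. It took 49 genes to reach 25% of the signal, 401 to reach 50% and 4425 to reach 90%. Over all 29942 names, 135 reached 50% and the 100 highest held 46.3%, but names under 200 bp held 44.3% of that total signal. At the other end, 13894 of the longer names (53.4%) had a signal of at least 1, which together made up 99.5% of their signal, and 1722 were listed at 0. The median over all longer names was 1.31, and over those of at least 1 it was 7.09. A signal of at least 100 was reached by 919 longer names (3.53%) and of at least 1000 by 42.

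**Figure D2:**
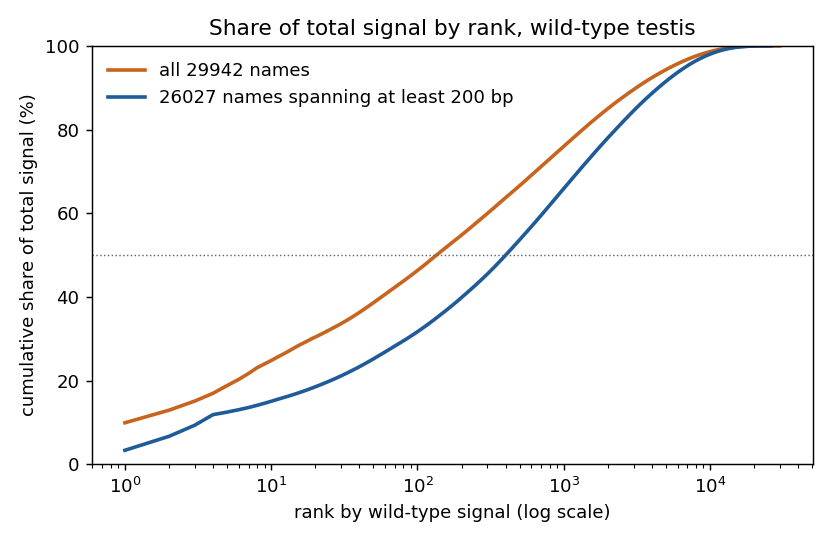
Cumulative share of total signal (%) against rank by wild-type signal (log scale), for all 29942 names (orange) and for the 26027 names spanning at least 200 bp (blue). The dotted line at 50% is crossed at rank 135 and at rank 401.

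The 4 most abundant genes spanning at least 200 bp were those that package sperm DNA. Their kept transcripts span 493, 718, 722 and 826 bp, against a median of 12503 bp over all longer names. How far the dependence of signal on span reaches such lengths, and so enters their values and shares, was not tested. Prm1, which encodes protamine 1 (chromosome 16, 10796424 to 10796916, mm9), had a signal of 17005 with an SD of 636. Prm2, the second protamine gene (chromosome 16, 10791473 to 10792190), had 16972 with an SD of 465. These signals differed by less than either SD. Tnp2, a transition protein gene (chromosome 16, 10788027 to 10788748), had 13511 with an SD of 182, and Tnp1 (chromosome 1, 73061648 to 73062473) had 12873 with an SD of 166. The gap between Tnp2 and Tnp1 was wider than either SD, as was the gap from Tnp1 to the fifth gene. That gene, the polyubiquitin gene Ubb, had 3148 with an SD of 47.7. Prm3, which lies between Prm2 and Tnp2 on chromosome 16, had 1178 with an SD of 69.8. The 4 leading genes held 11.9% of the signal of longer names and 6.599% of that of all names. The clone DQ072382, with 2285, has a span that contains Prm1 and overlaps the end of Prm2, and without strand its reads cannot be told apart from theirs.

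Below these stood genes of sperm structure, metabolism and translation. Smcp, for a protein rich in cysteine in the mitochondrial sheath of sperm, had 2689 with an SD of 38.0. Ldhc, the germ cell form of lactate dehydrogenase, had 2666 with an SD of 48.6, a gap from Smcp that is smaller than either SD. The tail genes Odf1 (outer dense fibre) and Meig1 (a manchette protein needed to build the tail) had 1796 (SD 30.7) and 1783 (SD 37.5). Dbil5, a testis member of the acyl-CoA-binding family, had 2513 with an SD of 54.8. The glutathione transferase gene Gstm5 had 2381 with an SD of 38.2, and Fabp9, a lipid-binding protein gene of the sperm head, had 2010 with an SD of 55.1. Oaz3, the antizyme of late spermatids that restrains polyamine synthesis, had 1521 with an SD of 27.8.

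The first 30 also held genes of wider expression, a Leydig cell hormone gene and tubulin genes. The phosphatidylethanolamine-binding protein gene Pebp1 had 1747 (SD 39.0) and the ribosomal protein gene Rpl41 1618 (SD 41.7). Insl3, the peptide hormone of Leydig cells, had 1686 with an SD of 94.7 and was the only gene of the somatic lists above 1000. Tuba3a and Tuba3b had 1254 and 1239, and since their sequences are nearly the same, reads can have been shared between them. Slc25a39 had 1549 with an SD of 247, and the clone AK188353 had 1392 with an SD of 857, the widest spread relative to the mean among the first 30. The transcript kept for a name was the one with the highest signal, and for some genes the longest transcript of the same name was much lower. It had 19.8 for Insl3, 71.1 for Fabp9 and 369 for Slc25a39. At the bounds of the ranks used below, rank 100 was Asrgl1 with 533 and rank 101 Sod1 with 530, and rank 1000 was Ndufs3 with 91.2 and rank 1001 Mrpl39 with 91.2.

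**Figure D3:**
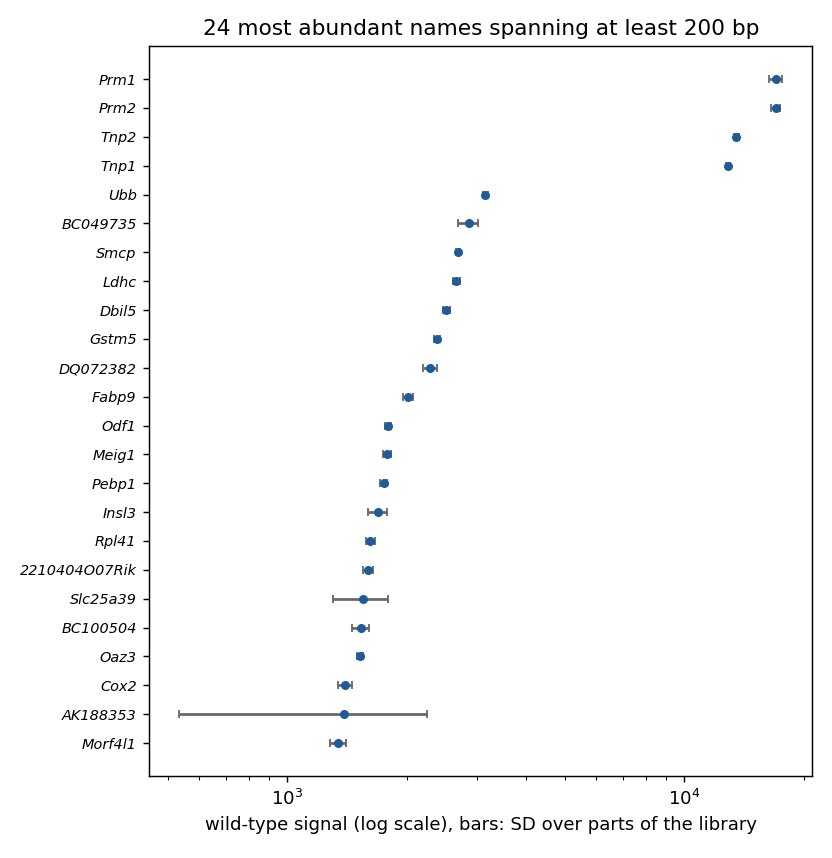
Wild-type signal (log scale) of the 24 most abundant names spanning at least 200 bp, each with its SD over parts of the library as a bar. Prm1, Prm2, Tnp2 and Tnp1 lie between 12873 and 17005, apart from Ubb at 3148, and AK188353 has the widest bar.

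The stretches of DNA before the starts of these genes are shown because several of the most abundant spermatid genes share letters there that fewer genes have over all. Each is the 100 bases before the annotated start, from the first window listed for the gene in RefSeq (GRCm38.p6), 5′ to 3′. Capitals mark TATA between 45 and 15 bases before the start on the transcribed strand, TGANNTCA, a pattern that is its own reverse complement, so that a match on either strand is a match on both, and GGGCGG on either strand. TGANNTCA has the outer letters of the cAMP response element (CRE) TGACGTCA, the site of CREB and CREM factors. It was chosen after the sequences of Prm1 and Tnp1 had been seen. The first 8 below are the most abundant listed spermatid genes with TGANNTCA in these 100 bases, and the last 5 are abundant genes without it.
Prm1, chr16:10796824-10796923, minus strand: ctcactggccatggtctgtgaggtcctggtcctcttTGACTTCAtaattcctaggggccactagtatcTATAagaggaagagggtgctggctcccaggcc
Tnp1, chr1:73015900-73015999, minus strand: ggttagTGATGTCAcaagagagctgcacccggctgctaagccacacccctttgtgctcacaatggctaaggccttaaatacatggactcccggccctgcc
Prm3, chr16:10790915-10791014, minus strand: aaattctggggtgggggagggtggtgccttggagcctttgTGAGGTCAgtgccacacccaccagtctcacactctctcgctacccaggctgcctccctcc
Gapdhs, chr7:30743682-30743781, minus strand: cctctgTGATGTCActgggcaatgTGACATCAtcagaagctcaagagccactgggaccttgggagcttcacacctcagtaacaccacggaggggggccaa
Gsg1, chr6:135254337-135254436, minus strand: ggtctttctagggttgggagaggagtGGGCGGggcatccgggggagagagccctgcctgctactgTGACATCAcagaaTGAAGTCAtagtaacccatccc
Actl7b, chr4:56741426-56741525, minus strand: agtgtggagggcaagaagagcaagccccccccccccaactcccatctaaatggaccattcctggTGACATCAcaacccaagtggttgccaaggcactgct
Capzb, chr4:139194011-139194110, plus strand: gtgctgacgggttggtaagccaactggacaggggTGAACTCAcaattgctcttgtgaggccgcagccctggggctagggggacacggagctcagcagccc
Tssk2, chr16:17898537-17898636, plus strand: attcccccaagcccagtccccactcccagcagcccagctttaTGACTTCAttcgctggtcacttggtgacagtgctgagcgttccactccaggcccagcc
Prm2, chr16:10792106-10792205, minus strand: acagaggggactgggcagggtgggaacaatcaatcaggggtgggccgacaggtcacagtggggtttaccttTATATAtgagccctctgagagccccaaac
Tnp2, chr16:10788656-10788755, minus strand: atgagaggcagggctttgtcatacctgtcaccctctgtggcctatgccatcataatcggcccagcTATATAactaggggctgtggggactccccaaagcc
Ldhc, chr7:46861163-46861262, plus strand: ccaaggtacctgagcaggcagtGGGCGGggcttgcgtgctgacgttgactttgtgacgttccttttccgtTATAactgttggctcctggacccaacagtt
Ubb, chr11:62551071-62551170, plus strand: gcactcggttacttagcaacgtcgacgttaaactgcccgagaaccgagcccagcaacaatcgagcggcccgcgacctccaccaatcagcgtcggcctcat
Insl3, chr8:71689152-71689251, plus strand: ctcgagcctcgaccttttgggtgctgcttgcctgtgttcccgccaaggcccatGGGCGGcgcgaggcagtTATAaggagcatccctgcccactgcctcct

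The CRE-like letters were frequent before the genes of both spermatid lists. In the windows of 300 bases around the start, TGANNTCA stood in 14 of 31 round spermatid genes (45.2%) and 18 of 39 elongating spermatid genes (46.2%) that had a RefSeq window, against 2007 of 16512 genes in all (12.2%). Within the last 100 bases before the start, the counts were 11 of 31 (35.5%) and 14 of 39 (35.9%), against 908 of 16512 (5.50%). Prm1 and Tnp1, from which the letters were chosen, are among the 14. The kept Capzb transcript spans 7377 bp, whereas the longest of that name spans 98883 bp with a signal of 59.4, so the RefSeq window shown may belong to another start than the kept transcript. In Prm1 the letters began 64 bases before the start, in Tnp1 94 and in Actl7b 36, and Gapdhs and Gsg1 held them 2 times each. The spermatocyte list had them in 3 of 25 windows of 300 bases, the early meiosis list in 2 of 22, the Sertoli list in 1 of 20 and the Leydig list in 2 of 19. Lists with little RNA here also exceeded the 12.2%: the epididymal list had the letters in 5 of 16 windows (31.3%) and the olfactory receptors in 221 of 934 (23.7%), so they do not mark abundant genes alone. The full palindrome TGACGTCA was in 1 window of each spermatid list and in 406 of all 16512. A match describes letters only and shows no binding.

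Other promoter letters varied with abundance in different ways. TATA stood 45 to 15 bases before the start of Prm1, Prm2, Tnp2, Ldhc and Insl3, but not of Tnp1 or Ubb. Of the 70 genes among the 100 most abundant that had a RefSeq window, 6 had it (8.57%), against 7.29% of all 16512. The share was 4.09%, 3.25% and 3.93% in ranks 101 to 1000, 1001 to 5000 and 5001 to 13894, and highest, 11.9%, in names with a signal under 1. TGANNTCA was in 21 of these 70 windows (30.0%), in 17.0% of ranks 101 to 1000, in 12.4% of ranks 1001 to 5000, in 10.4% of ranks 5001 to 13894 and in 12.9% of names with a signal under 1. The elongating spermatid genes had a median of 4 CG dinucleotides per window and the round spermatid genes 8, against 14 over all 16512 genes and 21 in the cytosolic ribosomal protein genes. GGGCGG, the core of the Sp1 site, was in 12 of 39 elongating spermatid windows and in 37 of 62 ribosomal protein windows, against 48.8% of all.

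The medians of the germ cell marker lists rose from stage to stage, with the elongating spermatid list highest. The lists were drawn up from textbook markers, but with earlier results of these data known, so their order is a description only. They overlap in 3 genes (Acrv1, Sycp3 and Tcp11). Their median signals were 2.41 for spermatogonia (28 genes), 6.67 for early meiosis (25 genes), 60.9 for mid to late spermatocytes (32 genes), 74.5 for round spermatids (35 genes) and 361 for elongating spermatids (46 genes). The ranges of all 5 lists overlap. The 81 spermatid genes held 16.8% of the signal of longer names (9.35% of all names). The 56 genes of the early meiosis and spermatocyte lists held 1.93%, and the spermatogonial list 0.0906%. Ldhc, Meig1 and Ybx2, all in the spermatocyte list, held 0.524%, 0.350% and 0.209%. Meig1 is also named above among tail genes. Bulk RNA does not show which stage holds a transcript, so the split by stage rests on how genes were assigned to lists. A signal of at least 100, found in 3.53% of longer names, was reached by 38 of 46 elongating spermatid genes, 12 of 35 round spermatid genes, 12 of 32 spermatocyte genes and 1 gene each of the early meiosis and spermatogonial lists.

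**Figure D4:**
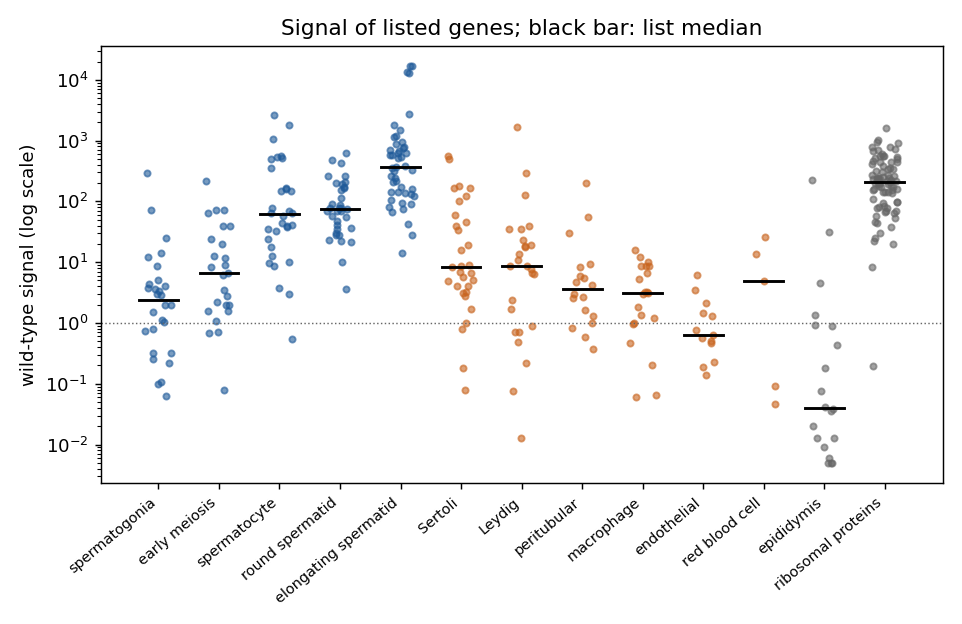
Wild-type signal (log scale) of each listed gene, by list, with germ cell lists in blue, somatic cell lists in orange and other lists in grey; the black bar is the list median and the dotted line a signal of 1; values under 0.005 are drawn at 0.005. The medians go from 2.41 in the spermatogonial list to 361 in the elongating spermatid list, and the epididymal median is 0.04.

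Elongating spermatid genes were high even without the 4 DNA-packaging genes. The other 42 held 4.09% of the signal with a median of 324, and 34 of them were at least 100 (81.0%, against 3.53% of longer names). The sperm nuclear histone genes Hils1 and H1fnt had 774 (SD 23.5) and 673 (SD 18.7), and the heat shock gene Dnajb3 888 (SD 29.3). Among tail genes, the fibrous sheath anchors Akap4 and Akap3 had 327 and 321, Ropn1l 946 and the outer dense fibre gene Odf2 570. Gpx4, the selenoprotein peroxidase that hardens the mitochondrial sheath, had 766 with an SD of 20.5. The lowest members were the perinuclear theca gene Cylc1 with 28.4 and the actin-related Actrt1 with 14.1.

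Round spermatid genes were spread over a narrower and lower range, 3.56 to 624. Cox8c, a testis form of a cytochrome oxidase subunit, was highest with 624 (SD 28.7). The testis-specific serine kinase genes Tssk2, Tssk6, Tssk1 and Tssk3 had 477, 421, 265 and 212, while Tssk4 had 23.1. The acrosome genes Acrv1, Acr (which encodes the protease acrosin), Zpbp2 and Izumo1 (the sperm protein that binds the egg) had 164, 70.5, 54.96 and 35.5. The sperm calcium channel genes Catsper1 to Catsper4 lay between 21.7 for Catsper3 and 78.2 for Catsper2. Crem, the postmeiotic transcription factor gene, had 87.4 with an SD of 13.0 in its highest transcript, while others of that name went down to 1.99. Its cofactor gene Fhl5 had 156. Gopc, a Golgi gene needed to form the acrosome, was the lowest with 3.56.

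Spermatocyte genes covered a wide range. Below Ldhc, Meig1 and Ybx2 (the germ cell Y-box protein that stores messenger RNAs, 1063 with an SD of 47.2) stood the glycolytic gene Pgk2 with 556, the Y-box gene Csda with 511 and the piRNA pathway gene Mael with 497. The heat shock gene Hspa2, which spermatocytes need to finish meiosis, had 353. The Piwi genes Piwil1 and Piwil2 had 69.4 and 34.8, and Ccna1, the cyclin of the meiotic division, 43.4. The testis linker histone gene Hist1h1t had 2.98 (SD 1.24) and Ccnb3 0.539 (SD 0.205), the lowest of the list. Histone transcripts mostly lack a poly(A) tail, and the library was made from polyadenylated RNA. How far this sets the value of Hist1h1t was not tested.

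The early meiosis genes spanned 0.078 to 212. Syce1, of the central element of the synaptonemal complex, was highest with 212 (SD 9.91), followed by the recombination cofactor gene Psmc3ip with 73.2 and Syce2 with 71.0. The cohesin genes Stag3, Smc1b and Rec8 had 64.6, 39.6 and 39.1, and the lateral element gene Sycp3 24.2. Spo11, which makes the double-strand breaks, had 8.22 (SD 0.912), Dmc1, the meiotic recombinase, 2.20 (SD 0.467) and Msh4 1.59. Prdm9, which marks the break sites, had 0.719 (SD 0.255) and Mei4 0.078 (SD 0.074). No row had the names Syce3, Meiob, Majin or Meioc.

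Spermatogonial markers had the lowest median of the 5 germ cell lists, 2.41, though the median over all longer names was 1.31. The highest members were Dmrtb1 and Ddx4. Dmrtb1, a transcription factor gene of the mitosis to meiosis switch, had 288 (SD 8.55) and made up 62.4% of the list's signal. Ddx4, the germ cell RNA helicase that later germ cells also express, had 72.1. Of the 28 genes, 19 reached a signal of 1 (67.9%, against 53.4% of longer names). A signal of 10 was reached by 5 of the 28, and by 5728 of the 26027 longer names. The stem cell genes Id4, Zbtb16, Gfra1 and Ret had 14.2, 0.326, 0.217 and 0.105. The genes of differentiating cells Kit and Stra8 had 1.98 (SD 0.315) and 3.37 (SD 0.71), where the kept Kit transcript spans 7629 bp and the longest, of 81736 bp, had 1.67, and Nanos2 was lowest with 0.064 and an SD of 0.151, above its mean.

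The listed somatic cell genes were few, 114 among 26027 longer names, and their share depends on how many were listed. The 114 genes of the Sertoli, Leydig, peritubular, macrophage, endothelial and red blood cell lists made up 0.974% of the signal of longer names. Over all names their share was 0.542%. Insl3 alone, in its kept transcript, held 0.331% of the signal of longer names. Of the 114 genes, 11 reached 100 (9.65%, against 3.53% of longer names). Sertoli genes had a median of 8.29. Their highest members encode secreted proteins: Clu (clusterin) with 564 (SD 11.4), the defensin gene Defb19 with 507 (SD 33.2) and the cystatin genes Cst12 and Cst9 with 178 and 169. The regulators Wt1, Sox9 and Gata4 had 6.97, 6.74 and 3.28. Fshr, the receptor for follicle-stimulating hormone, had 0.789 (SD 0.363), and Gdnf, the growth factor for stem cells, 0.181.

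In the Leydig list a single gene made up 71.3% of the signal, Insl3. Ptgds, a prostaglandin D synthase gene, had 294 (SD 13.4). Along steroid synthesis, the cholesterol carrier gene Star had 23.5, Cyp11a1 40.003, Hsd3b6 35.7, Hsd3b1 17.95, Cyp17a1 126 and Hsd17b3, the last step to testosterone, 7.68. Lhcgr, the receptor for luteinizing hormone, had 0.708 (SD 0.274), and Cyp2a4 was lowest with 0.013. Of 26 genes, 19 reached 1 (73.1%, against 53.4% of longer names).

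The remaining cell types were lower still. Peritubular genes were led by the smooth muscle genes Actg2 with 200 (SD 9.56), Myl9 with 54.3 and Acta2 with 29.97 (SD 3.14), while the myosin gene Myh11 had 2.55 and the collagen genes Col1a1 and Col3a1 3.01 and 2.63. Macrophage genes had a median of 3.14 and none above 15.7, the value of H2-Ab1. C1qb had 12.2, and the defining leukocyte genes Ptprc and Itgam had 0.060 and 0.065. Of 13 endothelial genes 5 reached 1 (38.5%, against 53.4% of longer names), with Cldn5 highest at 6.17 and Pecam1 at 0.227. For haemoglobin, Hba-a2 had 25.5 and Hbb-b1 13.8, each with a near-identical copy that can share its reads. Markers of the epididymal duct, which can be carried over in dissection, had a median of 0.04. Of 20 such genes 4 reached 1 (20.0%, against the same 53.4%): Cst8 with 222 and Spinlw1 with 31.7, which testis is also known to express, Defb15 with 4.59 and Rnase10 with 1.36. The duct genes Crisp1 and Adam7 had 0.042 and 0.004, and Defb2 and Lcn5 were listed at 0.

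Germ cell forms of metabolic and housekeeping genes mostly exceeded their somatic relatives. Of 17 pairs, that of Aldoa was left out of the count, because the kept transcript of this name spans 1576 bp on chromosome 12 while the others of the name lie on chromosome 7. In 13 of the other 16 pairs the germ cell form had the higher signal, in 12 by at least 2-fold and in 7 by at least 10-fold, with a median ratio of 7.76. The centrin pair was widest, with 200 for Cetn1 and 2.71 for Cetn2, a ratio of 73.8. Pgk2 had 556 (SD 17.9) against 10.9 (SD 1.82) for the X-linked Pgk1, and Pdha2 76.4 (SD 3.75) against 2.30 (SD 0.632) for the X-linked Pdha1. Rbmxl2 had 40.6 and its X-linked parent Rbmx 0.699. Ldhc stood at 12.5 times Ldha, which had 213, and Gapdhs with 704 at 8.18 times Gapdh with 86.1. In 3 pairs the somatic form was higher: Pabpc1 had 761 against 250 for Pabpc2, Eno1 73.2 against 23.8 for Eno4, and Slc25a4 24.1 (SD 2.98) against 17.99 (SD 2.15) for Slc25a31. Tbpl1, which encodes the TBP relative TRF2, had 39.9 (SD 1.79) and Tbp 27.8 (SD 3.02), with 12.3 in the longest Tbp transcript. The Aldoa transcripts on chromosome 7 had 92.2 to 104 and that on chromosome 12 had 279, all above the 58.6 of Aldoart1. Counted with this pair, the germ cell form was higher in 13 of 17 pairs, with a median ratio of 7.34.

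Genes of cytosolic ribosomes and respiration were also abundant. The 82 cytosolic ribosomal protein genes held 4.72% of the signal, with a median of 212. Of these, 60 were at least 100 (73.2%, against 3.53% of longer names). The kept Rps4x transcript, with 144, lies on chromosome 6, whereas those on the X chromosome had 13.6 to 13.7. The ribosomal genes ranged from 1618 for Rpl41 to 0.194 for Rpl3l, which muscle uses in place of Rpl3. The 76 mitochondrial ribosomal protein genes had a median of 15.3. The 90 names that match respiratory chain and ATP synthase symbols, a few of them related genes such as the assembly factor Uqcc and with Uqcr and Uqcr11 as overlapping names, held 2.12% with a median of 76.3, led by Cox8c, Atp5k with 467 and Atp5e with 464, while the muscle form Cox6a2 had 0.349 and Cox8b was listed at 0. The 10 names on the mitochondrial genome held 0.805%, with Cox2 at 1400 (SD 56.1), mt-Nd4 at 264 and Cytb at 245. Of 45 proteasome genes 7 reached 100 (15.6%, against 3.53% of longer names). Psmc3 had 485 and Psmc2 235, whereas the immunoproteasome genes Psmb8 and Psmb9 had 1.36 and 1.45. Of 19 tubulin genes 3 exceeded 1000: Tuba3a, Tuba3b and Tubb2c (1207).

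Names in RIKEN clone style, some of which have since received symbols, made up 9.32% of the signal. Of 1602 such longer names, 8 were among the first 100 and 134 among the first 1000. They were 8% of the first 100, 14.0% of ranks 101 to 1000 and 4.56% of the names with a signal under 1. Their share of all longer names was 6.16%. The highest were 2210404O07Rik with 1594, 4732415M23Rik with 1199 and 1700003F12Rik with 1045. Genes named for spermatogenesis or testis (Spata, Tex, Tsga and Spag) reached 1 in 51 of 55 cases (92.7%, against 53.4% of longer names), with Spata4 highest at 563.

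The X chromosome held a smaller share of the signal than of the names. The 977 X-linked names were 3.75% of the longer names and held 1.61% of their signal. Of these 464 reached a signal of 1 (47.5%, against 53.8% of autosomal names), and 16 reached 100 (1.64% against 3.59%). Among names of at least 1 the X-linked median was 3.70 and the autosomal one 7.27. X-linked names were 1 of the 100 highest, 1.78% of ranks 101 to 1000 and 4.08% of ranks 5001 to 13894. That 1 was the clone AK019796 with 1061 (SD 141), followed by the fibrous sheath gene Akap4. Several of the next X-linked names are spermatid genes, such as Tsga8 with 232 and the perinuclear theca gene Cypt3 with 185. The 42 Y-linked names held 0.0114%, with Gm6026 at 18.2 and Eif2s3y at 16.3 highest. Chromosome 16 held 12.1% of the signal with 3.17% of the names, and chromosome 11 held 8.64%, the next largest share. Prm1, Prm2, Tnp2 and Prm3 lie within that of chromosome 16.

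The binding table of the same tissue, a readout not used to rank genes, differed by abundance and by list. Scores are the authors' own, without a stated definition, and were taken from transcripts at the locus of the ranked one. A Pol II promoter score above 0 was present for 54.5% of longer names and a TAF7L promoter score for 31%. Pol II scores were present for 93 of the 100 most abundant names, 91.7% of ranks 101 to 1000, 78.9% of ranks 5001 to 13894 and 22.6% of names under 1. For TAF7L these shares were 66.0%, 63.6%, 47.0% and 6.45%. In the elongating spermatid list 44 of 46 genes had Pol II and 19 had TAF7L (41.3%). Prm1, Prm2, Tnp1 and Tnp2 had Pol II scores of 871, 714, 461 and 1090 and TAF7L scores of 0. TAF7L was present for 21 of 35 round spermatid genes (60%), 27 of 32 spermatocyte genes (84.4%), 74 of 82 cytosolic ribosomal protein genes (90.2%), 2 of 31 Sertoli genes and 2 of 26 Leydig genes. Pol II was present for 24 of those 31 Sertoli and 15 of those 26 Leydig genes, with median scores of 130 and 161. The median score was 261.5 in the round and 287.5 in the elongating spermatid list, and 328 over all longer names with a score.

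**Figure D5:**
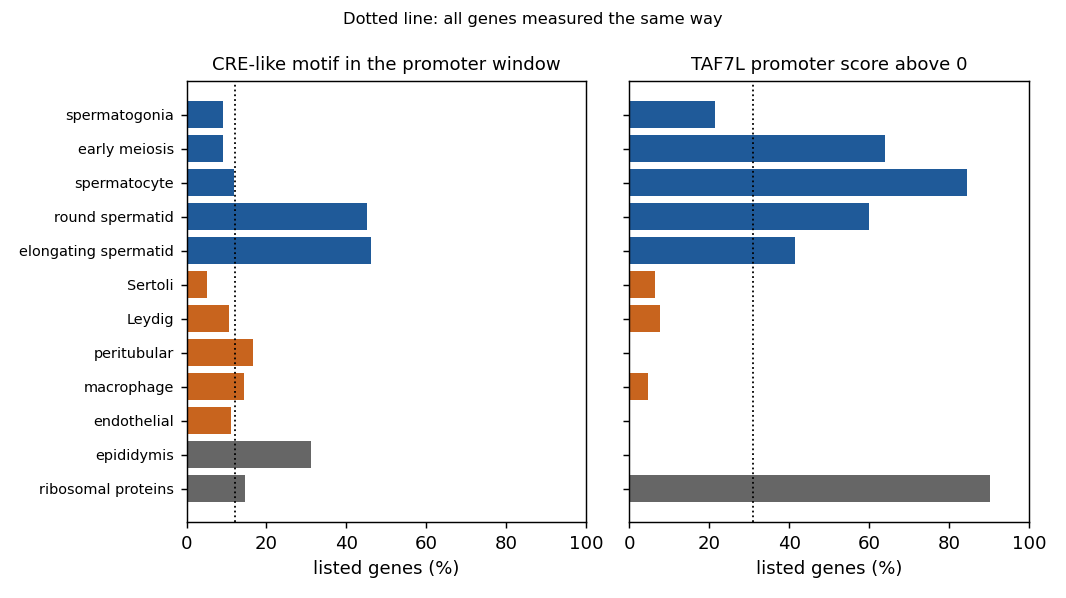
Share of listed genes (%) with the CRE-like motif TGANNTCA in the RefSeq window of 300 bases (left) and with a TAF7L promoter score above 0 (right), with germ cell lists in blue, somatic lists in orange and other lists in grey. The dotted lines mark 12.2% and 31%, the shares over all genes; the motif bars of the spermatid lists reach 45.2% and 46.2% and that of the epididymal list 31.3%, and of the lists drawn the TAF7L bars are highest for ribosomal proteins (90.2%) and spermatocytes (84.4%).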

How the data were processed

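The authors deposited an expression signal per transcript with a mean and an SD, per the file headers; the header names no unit. The submitters' processing notes name Bowtie, TopHat and Cufflinks and the build mm9, without versions; no source used here says over what the mean and SD were taken. Among names with a signal of at least 0.1 the largest ratio of SD to mean was 8.02, as 1 non-zero value among 64 would give. The authors also deposited a TAF7L and a Pol II promoter score per transcript, per the file headers, without a definition. The labels give between 100000000 and 200000000 reads per RNA library. Counts per gene were not used, so no counting interval is given.

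For each name the transcript with the highest wild-type mean was kept. In 171 names the transcripts lay on more than 1 chromosome (kept transcripts of list members were checked against the chromosome in RefSeq), and 27 names had been turned into dates. Strand was not stated. Gene lists were matched by name, with older symbols. Genes named are from the 30 most abundant, the 4 highest and the lowest members of each list, members at 0 and both genes of each pair; the others were picked with their values in view, and some genes under the rule are not reported here. The members and lists were chosen with earlier results of these data known. Promoter windows (250 bases before to 50 after the start) came from a RefSeq table of GRCm38.p6, matched by symbol for 16512 genes. The share functions were tested on simulated data, with Python 3.11.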

Additional observations from a re-analysis of the deposited data

How the results depend on the processing

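Of 57 recomputed values, 34 stayed within the spread over parts of the library, or within 1.5 times for counts of genes. Over all names, the number of genes that hold 50% of the signal is 135, the share in the 1000 highest 76.0%, the elongating spermatid share 8.87%, the somatic share 0.542% and the X-linked share 1.596%. Without names under 200 bp, 401 genes held 50%, the 100 highest names held 31.7% and the 1000 highest 65.9%, and the elongating spermatid and somatic shares were 15.9% and 0.974%. With overlapping names also left out (2196 names with 1.95% of the signal), these were 382, 32.2%, 66.9%, 16.3% and 0.993%. Without names whose SD is at least the mean, 232 genes held 50%, the 1000 highest held 71.3%, and the elongating spermatid, somatic and X-linked shares were 13.1%, 0.801% and 2.34%. Without accession-style names the same values were 257, 71.4%, 14.9%, 0.909% and 1.97%. Summing all transcripts of a name gave 206 genes and 71.4% in the 1000 highest. At a threshold of 5 in place of 1, 8852 names were expressed in place of 14610. The alternatives that leave out overlapping or accession-style names were added after the data were seen. Adding transcripts without a name was not run, since every transcript has one. No paired analysis was possible because there is 1 library. Precision falls with signal: the median ratio of SD to mean was 0.0337 in the 100 highest longer names, 0.198 in ranks 5001 to 13894 and 1.07 under a signal of 1.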

Other observations

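Olfactory receptor genes were mostly silent. Of 1115 olfactory receptor names, 678 were listed at 0 and 13 reached a signal of 1 (1.17%, against 53.4% of all longer names), with Olfr856-ps1 at 7.63, Olfr128 at 6.62 and Olfr733 at 5.81 highest. Of 369 Zfp zinc finger genes, 191 reached 1 (51.8%, near the 53.4% of all longer names), none reached 100, and the median was 1.05, with Zfp451 highest at 56.9. Adipocyte markers had a median of 0.472, and Dgat2, a triglyceride synthesis gene, made up 86.3% of their signal with 126, whereas Adipoq had 8.44.

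Genes often used as references for normalization differed widely in this library. Ubb, Eef1a1 and Eef2 had 3148, 1174 and 873, Actb 401 and Ppia 256, while Hprt had 5.55, Tfrc 1.995 and Gusb 1.33, so that the 20 listed reference genes spanned 1.33 to 3148 with a median of 47.8. Among genes for storage and translation of germ cell messenger RNAs, Ybx2, Pabpc1 and Csda led with 1063, 761 and 511, and Cpeb1 was lowest with 0.869.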
